A study of Mus musculus with 4 samples.

Results

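Collagens are the main structural proteins of bone and connective tissue, and the 46 genes described here encode their α chains and the enzymes that modify them. Collagen genes were all genes of the deposited table whose mouse symbol is Col, a number, a and a number. The enzymes were 22 named genes of prolyl and lysyl hydroxylation, glycosylation, propeptide removal and crosslinking. The word enzymes is used for this whole set, which also holds genes of helper proteins such as Pcolce. The table held 26 of the 44 collagen genes in the annotation and 20 of the 22 enzyme genes, so 46 of its 12208 genes are described; the other 20 were not analysed here. All 46 passed the filter used for testing, a mean of at least 1 CPM (counts per 1000000 reads on the listed genes). RNA sequencing was done on mouse 3T3 cells, which the labels call a pre-osteoblast line. The name 3T3 is shared with fibroblast lines, and the sources used here do not say which line this was. The 4 groups were control cells and cells given recombinant LTα1β2, each for 24 h or 48 h, with 1 library in each group. LTα1β2 is a membrane-type lymphotoxin of the TNF superfamily that acts through the lymphotoxin β receptor, and its dose is not given in the sources used here.

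Each collagen molecule is built from α chains wound around each other in a helix of repeated glycine-containing triplets. In the endoplasmic reticulum, prolyl hydroxylases stabilise the helix, and lysyl hydroxylases and galactosyltransferases prepare sites for sugars and crosslinks. After secretion, proteases remove the propeptides and lysyl oxidases start the crosslinking of the fibrils. Type I collagen is the main organic component of bone matrix, and osteoblasts and fibroblasts both make it in quantity.

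Depth, as reads estimated from the CPM steps, ran from 11355974 to 15995777 reads per library. The treated 48 h library stood apart in transcript length. Its reads had a weighted median transcript length of 3127 bases, against 3588 to 3659 in the other libraries. Across the 12157 tested genes with an annotated length, the log2 fold after 48 h declined with transcript length (Spearman's rho = -0.44), and that after 24 h hardly did (rho = -0.02). Collagen transcripts are long, with a median of 6083.5 bases for the 26 genes against 3355 for all tested genes and 3281.5 for the enzymes. Values set against genes of like length are therefore given for the collagen genes and the enzymes as sets, and for some single genes. The 48 h ratios of single genes, here and on other gene lists, are not themselves adjusted for length. Of 10 osteoblast markers 8 were in the table, with Runx2 at 67.5 to 126 CPM, but Bglap, osteocalcin, was at 1.33 CPM at most. Their summed level was 1443 CPM in control and 1580 CPM with LTα1β2 after 24 h and 1741 and 2324 CPM after 48 h, mostly from Spp1, osteopontin, and their part in the results was not tested. Of 8 fibroblast and mesenchyme markers 7 were in the table, Col1a1 and Col1a2 among them. Vim was at 3176 to 3784 CPM, Pdgfra at 107 to 152 CPM, Pdgfrb at 177 to 305 CPM and S100a4 at 3.88 to 10.4 CPM. The identity of the line was not tested. Of 6 endothelial and 6 epithelial markers 0 were in the table. Of 7 macrophage markers 3 were, with a summed level of 57.4 to 85.9 CPM, nearly all of it Lyz2, and their part in the results was not tested. In bulk RNA, fewer cells making a transcript and less of it per cell cannot be told apart. The labels do not say whether the libraries came from separate experiments. The p-values of the additive fit below rest on how far the 24 h and 48 h folds of genes at a similar level differ. They do not measure a spread between repeats. That difference can hold technical spread, a change of effect with time and the length difference of the treated 48 h library.

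Most collagen transcripts were less abundant in LTα1β2-treated cells at both times, and the enzymes that modify collagen were lower by a smaller amount. Reads on the 26 collagen genes made up 4.36% of the control library after 24 h and 4.30% of the control library after 48 h. They made up 3.10% of the treated library after 24 h and 2.48% after 48 h. The 20 enzyme genes together went from 4860 CPM to 4457 CPM after 24 h and from 4733 CPM to 3802 CPM after 48 h. In treated cells 22 of the 26 collagen genes and 15 of the 20 enzymes were below control after 24 h, where 45.1% of all tested genes were, and 23 and 20 after 48 h, where 59.3% were. Rescaling by median of ratios or TMM moved the median of all genes after 48 h from -0.09 to near 0, and 19 and 18 enzymes were then below control. Among the collagen genes 21 of 26 were lower at both times and 2 were higher at both, Col18a1 and Col7a1. Among the enzymes 15 of 20 were lower at both times and 0 higher at both, and 33.2% of all tested genes were lower at both. The median log2 fold, taken on log2(CPM + 1), was -0.31 after 24 h and -0.61 after 48 h for the collagen genes and -0.14 and -0.34 for the enzymes. Over all 12160 tested genes it was 0.02 and -0.09. Both treated libraries lay below both controls for 17 of the 26 collagen genes and 14 of the 20 enzymes, against 21.3% of all tested genes.

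With 1 library per group there is no test at a single time. The test that the design allows is a limma model with additive terms for treatment and time, with Benjamini-Hochberg adjustment over all 12160 genes, in which 24 h and 48 h stand in for repeats. In it 8 of the 26 collagen genes fell and 0 rose, while 2.27% of all tested genes fell and 2.92% rose. The 8 were Col11a1, Col1a1, Col3a1, Col6a3, Col8a2, Col12a1, Col2a1 and Col4a6. Of the 20 enzymes 0 passed the test in limma. At an unadjusted p below 0.05, 18 of the 26 collagen genes and 3 of the 20 enzymes (P3h2, Pcolce and Adamts2) were lower, where 7.72% of all tested genes were, and 1 collagen gene, Col18a1, was higher, where 8.54% were. In this fit the error of a gene is that of genes at a similar level. With the prior degrees of freedom set to 10, which lets each gene's own spread weigh in, only Col11a1 of the 46 remained past the threshold (adjusted p = 0.02, limma), and 0.206% of all tested genes fell.

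After rescaling by median of ratios 2 of the 8 still passed, Col11a1 and Col8a2, where 0.683% of all tested genes fell, and after TMM rescaling 5, where 1.26% did. In the TMM fit Col1a1, Col3a1 and Col12a1 did not pass, at log2 folds of -0.76, -0.70 and -0.60. With the trend in transcript length removed 7 collagen genes fell, where 1.82% of genes did. Col1a1 (-0.68, adjusted p = 0.193, limma) and Col12a1 (-0.44, adjusted p = 0.108, limma) were not among them, and Col6a2 was. The prior degrees of freedom that limma estimated also went down in these fits, from infinite to 9.8, 13.8 and 8.4 in turn, so the change in values and the change in prior cannot be told apart. Fits with a library left out had no time term. Without the 24 h control 0 of the 46 genes fell, where 0.0658% of all tested genes did, and without the 48 h control 0, where 0.0493% did. Without the treated 24 h library 22 collagen genes and 15 enzymes fell, where 25.2% did. With treated 48 h left out 8 collagen genes fell, 5 of them the same genes, and 3 enzymes (P3h2, P3h4 and Pcolce), where 3.04% of all tested genes fell and 3.31% rose. Col1a1 (-0.57, adjusted p = 0.119, limma), Col12a1 (-0.31, adjusted p = 0.110, limma) and Col2a1 (-0.09, adjusted p = 0.770, limma) then did not pass.

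**Figure D1:**
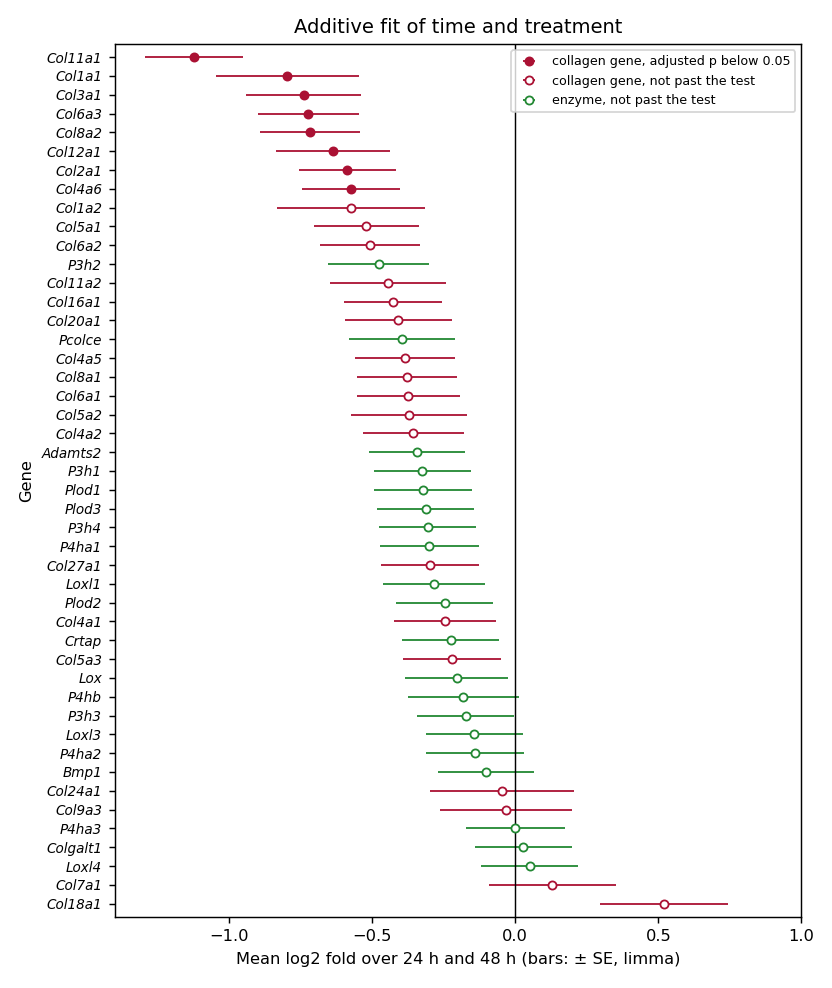
Mean log2 fold of each of the 46 genes over 24 h and 48 h (horizontal axis, log2(CPM + 1) scale) from the additive limma fit, with bars of 1 standard error. Filled points are the 8 collagen genes with an adjusted p below 0.05; open points did not pass, among them all 20 enzymes. Most estimates lie left of 0, from -1.12 for Col11a1 to 0.52 for Col18a1.

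The sequence before the start site is shown for 4 of the 8 genes that fell, as examples from collagens of different types. Shared regulation of these genes was not tested. The bases shown are the 200 upstream of the RefSeq start in GRCm38.p6, and no annotated exon of GENCODE M21 overlaps them. Capitals mark matches, on either strand, to 3 promoter motifs: the CCAAT box, the TATA box written as TATAAA, and the GC box written as GGGCGG. The windows are chr3:114030340-114030539 on the plus strand for Col11a1, chr1:45311338-45311537 on the plus strand for Col3a1, chr1:90843972-90844171 on the minus strand for Col6a3 and chrX:141474077-141474276 on the minus strand for Col4a6.
Col11a1: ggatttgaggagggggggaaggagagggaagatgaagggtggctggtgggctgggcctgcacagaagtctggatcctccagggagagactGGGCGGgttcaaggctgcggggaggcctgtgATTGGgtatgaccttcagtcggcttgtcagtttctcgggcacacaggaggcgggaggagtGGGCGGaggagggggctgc
Col3a1: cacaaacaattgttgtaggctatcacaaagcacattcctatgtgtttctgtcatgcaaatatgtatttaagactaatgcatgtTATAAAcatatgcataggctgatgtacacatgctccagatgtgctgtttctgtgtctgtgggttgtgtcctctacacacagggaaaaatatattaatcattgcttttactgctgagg
Col6a3: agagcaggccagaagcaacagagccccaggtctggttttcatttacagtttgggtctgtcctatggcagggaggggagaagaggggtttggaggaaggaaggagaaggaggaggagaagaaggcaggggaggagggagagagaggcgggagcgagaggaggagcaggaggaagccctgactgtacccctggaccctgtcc
Col4a6: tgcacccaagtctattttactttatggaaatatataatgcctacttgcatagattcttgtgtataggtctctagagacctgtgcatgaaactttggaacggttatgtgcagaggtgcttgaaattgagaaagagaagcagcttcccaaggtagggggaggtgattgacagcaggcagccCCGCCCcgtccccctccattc
The 4 windows have no one of these motifs in common. Col11a1 holds CCAAT on the minus strand 79 bases before the start and GGGCGG at 110 and 19 bases. Col3a1 holds TATAAA 117 bases before the start, Col4a6 holds GGGCGG on the minus strand at 21 bases, and Col6a3 holds 0 of the 3 motifs. RefSeq windows from 250 bases before to 50 after the start were found by symbol for 34 of the 46 genes. In these windows, GGGCGG was present for 16 of 21 collagen genes and 11 of 13 enzymes, against 69.9% of the 9238 genes of the table with a window. CCAAT was present for 9 of 21 and 3 of 13, against 43.6%, and TATAAA for 2 of 21 and 3 of 13, against 8.57%. The NF-κB consensus motif was present for 1 of 21 and 1 of 13, against 6.06%. Both strands were searched for each motif separately, so matches may share bases, and a match is a description of the sequence only.

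The fibril-forming collagens held most of the collagen reads, and 4 of these 11 genes fell. Col1a1 and Col1a2 encode the α1 and α2 chains of type I collagen and had the highest levels per kilobase of transcript of the 46 genes. Col1a1 (chromosome 11, GRCm38) was at 15684 CPM in control and 10034 CPM with LTα1β2 after 24 h, and at 14201 CPM and 7356 CPM after 48 h. Both treated libraries were below both controls. The treated level was 0.640 of control after 24 h (95% counting interval 0.636 to 0.644) and 0.518 after 48 h (0.514 to 0.522), and the gene fell in the additive fit (log2 fold -0.80 ± 0.25 SE, adjusted p = 0.0338, limma). Counting intervals cover counting error only, not differences between cultures. Col1a2 was at 16407 CPM in control and 12046 CPM with LTα1β2 after 24 h, and at 17107 CPM and 10513 CPM after 48 h. Its libraries were ordered in the same way, at 0.734 of control after 24 h and 0.615 after 48 h, but it did not pass (-0.57 ± 0.26 SE, adjusted p = 0.212, limma). Per kilobase of its longest transcript, Col1a1 stood at 0.862 of Col1a2 in control and 0.751 in treated cells after 24 h, and at 0.749 and 0.631 after 48 h. This ratio of levels was lower in the treated library at each time, and also lower after 48 h than after 24 h in control.

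Col3a1 encodes type III collagen, which is laid down with type I in many soft tissues. It was at 2270 CPM in control and 1579 CPM with LTα1β2 after 24 h, and at 2682 CPM and 1382 CPM after 48 h. The groups did not overlap, and the gene fell (log2 fold -0.74 ± 0.20 SE, adjusted p = 0.00911, limma), to 0.695 of control after 24 h (interval 0.684 to 0.707) and 0.515 after 48 h (0.506 to 0.525). Its level per kilobase was 0.154 of that of Col1a1 in control and 0.168 in treated cells after 24 h, and 0.201 and 0.200 after 48 h.

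Col11a1 had the lowest additive fold of the 46 genes. It encodes a chain of type XI collagen, which together with type V controls the width of fibrils. Its level was 289 CPM in control and 158 CPM with LTα1β2 after 24 h, and 328 CPM and 125 CPM after 48 h. The treated libraries were far below both controls, at 0.548 of control after 24 h (0.521 to 0.576) and 0.381 after 48 h (0.359 to 0.405). The additive log2 fold was -1.12 ± 0.17 SE (adjusted p = 1.81e-08, limma). Col5a1 and Col5a2 encode type V chains and did not pass the test. Col5a1 was at 839 CPM in control and 674 CPM with LTα1β2 after 24 h, and at 770 CPM and 466 CPM after 48 h (log2 fold -0.52 ± 0.18 SE, adjusted p = 0.0727, limma). Col5a2 was at 2294 and 1904 CPM after 24 h and at 2251 and 1618 CPM after 48 h, 0.830 and 0.719 of control. For both genes the treated libraries were below the controls. Per kilobase, Col11a1 stood at 0.377 of Col5a1 in control and 0.257 in treated cells after 24 h, and at 0.467 and 0.294 after 48 h. The type XI transcript thus had a lower share beside the type V transcript in each treated library.

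Col2a1, the type II collagen gene of cartilage, fell in the additive fit, but its libraries overlapped between the groups. It was at 112 CPM in control and 80.5 CPM with LTα1β2 after 24 h, and at 65.2 CPM and 39.8 CPM after 48 h (log2 fold -0.59 ± 0.17 SE, adjusted p = 0.0159, limma). The fold was -0.09 with treated 48 h left out, -0.20 without the 24 h control, -0.97 without the 48 h control and -1.09 without treated 24 h. The control was itself lower after 48 h than after 24 h, so that the treated 24 h library lay above the 48 h control. Of 8 chondrocyte markers only Col2a1 and Sox9 were in the table, with Sox9 at 24.5 to 34.6 CPM. Col27a1, a fibrillar collagen of developing cartilage, was at 72.4 CPM in both 24 h libraries and went from 56.4 to 37.0 CPM after 48 h. Col5a3, Col11a2 and Col24a1 did not pass. Col5a3 was at 0.934 of control after 24 h and 0.782 after 48 h, and Col11a2 at 0.866 and 0.565. Col24a1 was near the floor of the table, at 0.750 to 1.53 CPM, and its counting intervals included 1 at both times.

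**Figure D2:**
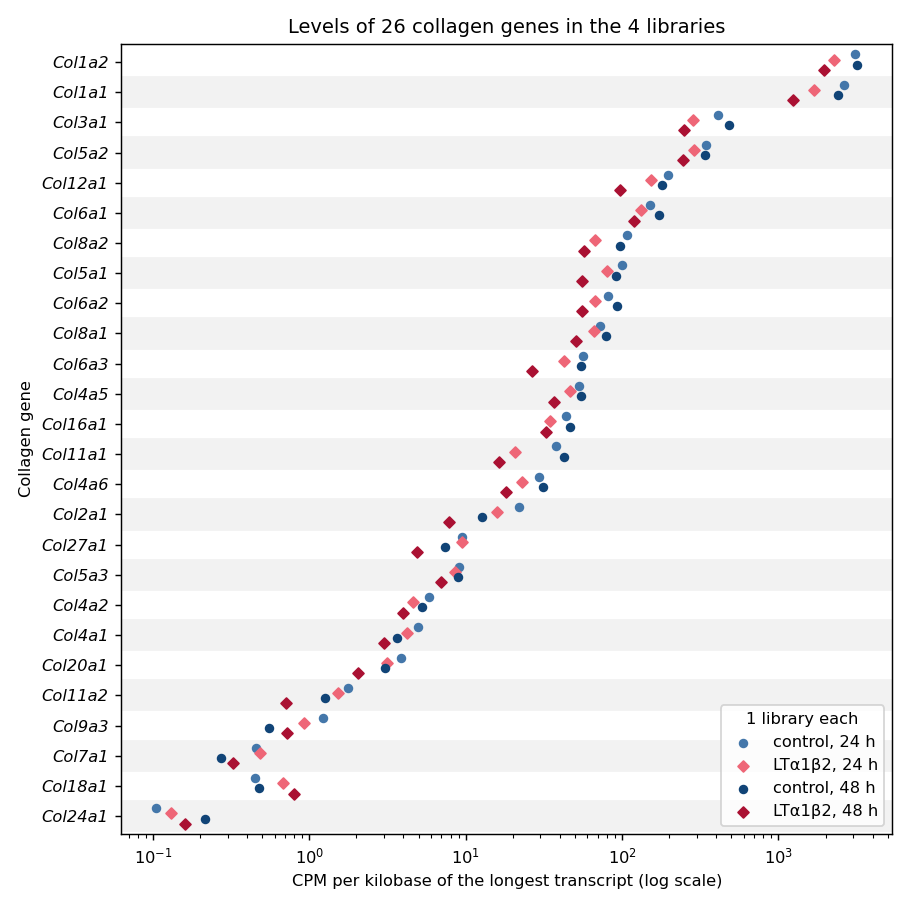
Level of the 26 collagen genes in each of the 4 libraries, as CPM per kilobase of the longest annotated transcript on a log axis; circles are control and diamonds LTα1β2, 1 library each. Levels span from 0.105 for Col24a1 to 3199 for Col1a2, and for most genes both diamonds lie left of both circles.

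Fibril-associated collagens sit on the surface of fibrils and link them to other matrix. Col12a1, the type XII gene, had the highest level per kilobase of the 4 genes and was the only one that fell. It was at 2262 CPM in control and 1753 CPM with LTα1β2 after 24 h, and at 2082 CPM and 1110 CPM after 48 h. Both treated libraries were below the controls, with a log2 fold of -0.64 ± 0.20 SE (adjusted p = 0.0333, limma). The fold was -0.31 with treated 48 h left out and -0.97 without treated 24 h. Col16a1 was at 0.790 of control after 24 h and 0.698 after 48 h, and Col20a1, at 10.3 to 19.4 CPM, at 0.803 and 0.678. Neither passed. Col9a3, at 1.68 to 3.75 CPM, was at 0.747 of control after 24 h and 1.31 after 48 h, with intervals that included 1 both times.

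Network-forming collagens comprise type IV of basement membranes and type VIII, made by endothelial and mesenchymal cells. Of 6 genes 2 fell, and all 6 were lower at both times, though Col4a1 was above 0 after 48 h with the length trend removed. Col8a2 was at 463 CPM in control and 290 CPM with LTα1β2 after 24 h, and at 422 CPM and 248.5 CPM after 48 h. Its ratio to control, 0.625 (0.602 to 0.649) and 0.589 (0.563 to 0.617), was nearly as low after 24 h as after 48 h (log2 fold -0.72 ± 0.17 SE, adjusted p = 0.00238, limma). Col8a1 was at 0.915 of control after 24 h and 0.647 after 48 h and did not pass. Per kilobase, Col8a2 stood at 1.48 times Col8a1 in control and 1.01 times in treated cells after 24 h, and at 1.24 and 1.13 times after 48 h.

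Col4a5 and Col4a6 lie head to head on chromosome X, and they were the most abundant type IV genes per kilobase in every library. Col4a6 was at 197 CPM in control and 151 CPM with LTα1β2 after 24 h, and at 206 CPM and 120 CPM after 48 h, and it fell (log2 fold -0.57 ± 0.17 SE, adjusted p = 0.0197, limma). Col4a5 was at 349 and 305 CPM after 24 h and at 359 and 240 CPM after 48 h and did not pass (adjusted p = 0.218, limma). Both treated libraries of both genes were below the controls. Col4a1 and Col4a2, the head-to-head genes on chromosome 8 that encode the most widespread type IV chains, were at 19.9 to 32.9 CPM and 25.8 to 37.7 CPM. Their levels were 0.847 and 0.791 of control after 24 h and 0.830 and 0.759 after 48 h, and neither passed.

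Type VI collagen forms beaded filaments around cells, and its 3 genes in the table encode the α1, α2 and α3 chains. Col6a3 was at 571 CPM in control and 428 CPM with LTα1β2 after 24 h, and at 552 CPM and 270 CPM after 48 h. It was below both controls in both treated libraries and fell (log2 fold -0.72 ± 0.18 SE, adjusted p = 0.00259, limma), with a fold of -0.39 when treated 48 h was left out. Col6a2 was at 399 and 329 CPM after 24 h and at 453 and 271 CPM after 48 h (-0.51 ± 0.18 SE, adjusted p = 0.0643, limma). Col6a1 was at 622 and 539 CPM after 24 h and at 710 and 488 CPM after 48 h, and neither passed. The longest transcript of Col6a3 has 10106 bases and that of Col6a1 4100. Per kilobase its level was 0.372 of that of Col6a1 in control and 0.322 in treated cells after 24 h, and 0.316 and 0.225 after 48 h.

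Col18a1 and Col7a1 were the 2 collagen genes above control at both times, both at low levels. Col18a1 encodes the multiplexin that carries endostatin. It was at 2.50 CPM in control and 3.80 CPM with LTα1β2 after 24 h, and at 2.67 CPM and 4.49 CPM after 48 h. Both treated libraries were above both controls, as for 20.8% of all tested genes. The ratio was 1.52 after 24 h (0.998 to 2.34) and 1.68 after 48 h (1.07 to 2.66), and the gene did not pass (log2 fold 0.52 ± 0.22 SE, adjusted p = 0.189, limma). Col7a1, of the anchoring fibrils of skin, was at 2.52 to 4.47 CPM, with intervals that included 1 at both times.

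Among the genes grouped here under prolyl hydroxylation, all 9 were lower after 48 h and 7 at both times. P4ha3 was above 0 after 48 h under TMM rescaling. The grouping, which includes Crtap and P3h4, does not mean that each product is itself a prolyl hydroxylase. P4hb, which encodes the β subunit of prolyl 4-hydroxylase and is also a general disulfide isomerase, had the highest level per kilobase of the enzyme genes. It was at 1258 CPM in control and 1150 CPM with LTα1β2 after 24 h, and at 1293 CPM and 1100 CPM after 48 h, or 0.915 and 0.851 of control. The α subunit genes differed from each other. P4ha1 was at 0.841 of control after 24 h (0.804 to 0.880) and 0.783 after 48 h (0.743 to 0.824). P4ha2 was at 1.03 and 0.791, and P4ha3 at 1.07 (1.02 to 1.12) and 0.937 (0.888 to 0.989). P3h1 and Crtap encode partners in the complex that hydroxylates proline at the 3 position. They were at 0.894 and 0.896 of control after 24 h and at 0.709 and 0.815 after 48 h. P3h2 had the lowest additive fold of the enzymes, with 33.1 CPM in control and 23.7 CPM with LTα1β2 after 24 h, and 32.3 CPM and 22.7 CPM after 48 h (-0.48 ± 0.18 SE, adjusted p = 0.0975, limma). P3h3 was at 0.935 and 0.840 of control, and P3h4 at 0.845 and 0.772.

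The lysyl hydroxylase genes Plod1, Plod2 and Plod3 were lower at both times. Plod2, whose product hydroxylates the telopeptide lysines used in crosslinks, was at 136 CPM in control and 127 CPM with LTα1β2 after 24 h, and at 146 CPM and 111 CPM after 48 h. Plod1 was at 0.819 and 0.775 of control and Plod3 at 0.873 and 0.739. The collagen galactosyltransferase gene Colgalt1 was at 1.07 (1.01 to 1.13) and 0.973 (0.913 to 1.04) of control, and after 48 h it was above 0 under each rescaling and with the length trend removed. The 3 genes of propeptide removal were lower at both times, though Bmp1 was above 0 after 48 h with the length trend removed. Pcolce, the enhancer of the C-proteinase, was at 865 CPM in control and 686 CPM with LTα1β2 after 24 h, and at 865 CPM and 629 CPM after 48 h (-0.40 ± 0.18 SE, adjusted p = 0.242, limma). Its 2 controls were nearly equal and both treated libraries lay below them. Bmp1, the C-proteinase itself, was at 0.974 and 0.890 of control, and Adamts2, an N-proteinase, at 0.877 and 0.705.

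Genes of the lysyl oxidase family differed in direction after 24 h, where Loxl4 was above control and Loxl1 and Loxl3 below it. Lox was at 682 CPM in control and 688 CPM with LTα1β2 after 24 h, and at 543 CPM and 405 CPM after 48 h. The 24 h libraries were within counting error of each other and the 48 h libraries apart, at 1.01 (0.982 to 1.04) and 0.746 (0.718 to 0.774) of control. Loxl4 was higher in treated cells after 24 h, with 81.0 CPM in control and 104 CPM with LTα1β2, and lower after 48 h, with 91.5 and 76.9 CPM. Loxl1 was at 0.768 of control after 24 h and 0.865 after 48 h, and Loxl3 at 0.931 and 0.879. Exons of Loxl3, Plod3, Plod2, Colgalt1 and P3h2 overlap those of another gene in the table on the opposite strand by 346 to 1055 bases, so their values are uncertain to that extent, and the sources used here do not say whether strand was used in counting.

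**Figure D3:**
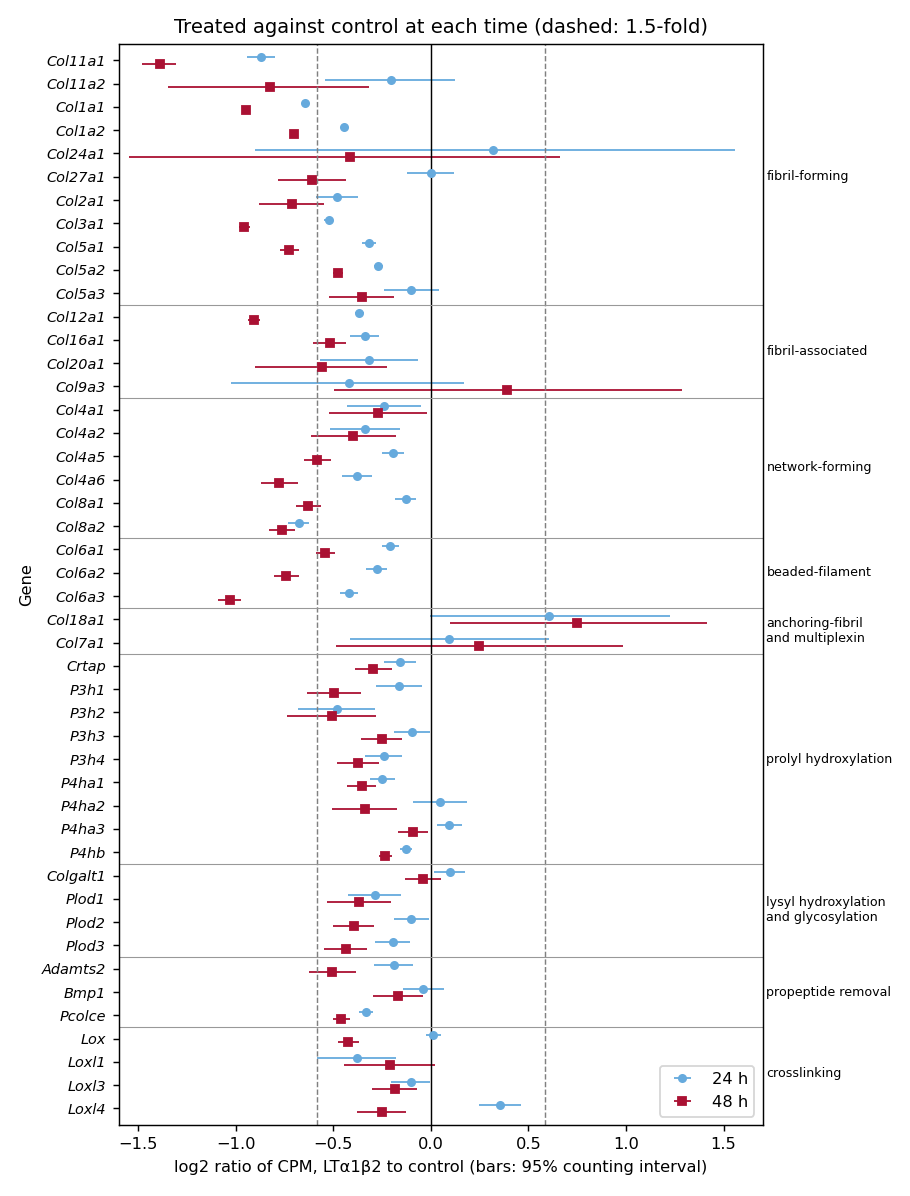
Log2 ratio of CPM, LTα1β2 to control, for each of the 46 genes by class after 24 h (circles) and 48 h (squares), without a pseudocount; bars are 95% counting intervals and dashed lines mark 1.5-fold. Fibril-forming and beaded-filament genes reach furthest below 0 after 48 h, and wide bars belong to genes with few reads such as Col24a1 and Col9a3.

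Single-time differences were sized by a 1.5-fold rule. By it 3 collagen genes were lower in treated cells after 24 h (Col11a1, Col8a2 and Col1a1), where 1.35% of all tested genes were. At 48 h 14 of the 26 were lower, against 6.28% of tested genes. At each time 0 collagen genes were 1.5-fold higher, where 1.48% and 7.39% of tested genes were, and 0 of the 20 enzymes passed in either direction. The fold was lower after 48 h than after 24 h for 23 of the 26 collagen genes and 19 of the 20 enzymes, and for 61.6% of all tested genes. The difference between the times was not tested, since the design leaves no spread for it.

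Since the folds after 48 h declined with length, each gene was set against the 500 tested genes nearest to it in transcript length. At 48 h 21 of the 26 collagen genes and 18 of the 20 enzymes were below the median of their like-length genes, where 50.1% of all genes were. The collagen genes lay below it by a median log2 difference of -0.40, against -0.61 without the comparison, and the enzymes by -0.21. At 24 h the corresponding differences were -0.34 and -0.16. In the lowest 10% of like-length genes were 14 collagen genes and 3 enzymes after 48 h, where 10.1% of all genes were, and 16 and 5 after 24 h, where 9.97% were. Col11a1 lay furthest below its like-length genes of the 46, by -0.89 after 24 h and -1.07 after 48 h, and Col18a1 furthest above, by 0.45 and 0.81. Col3a1 followed after 48 h with -0.73, then Col1a1 with -0.69, Col6a3 with -0.67 and Col8a2 with -0.59. With the length trend removed from each library, these 5 were the collagen genes still 1.5-fold lower after 48 h, down from 14, and the 9 that no longer were included Col1a2, Col12a1 and Col5a1. Col18a1 was then 1.5-fold higher. The share of all tested genes past 1.5-fold in that setting was not counted. At 48 h Col4a1 was within 0.04 of its like-length genes and Col5a3 within 0.07.

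**Figure D4:**
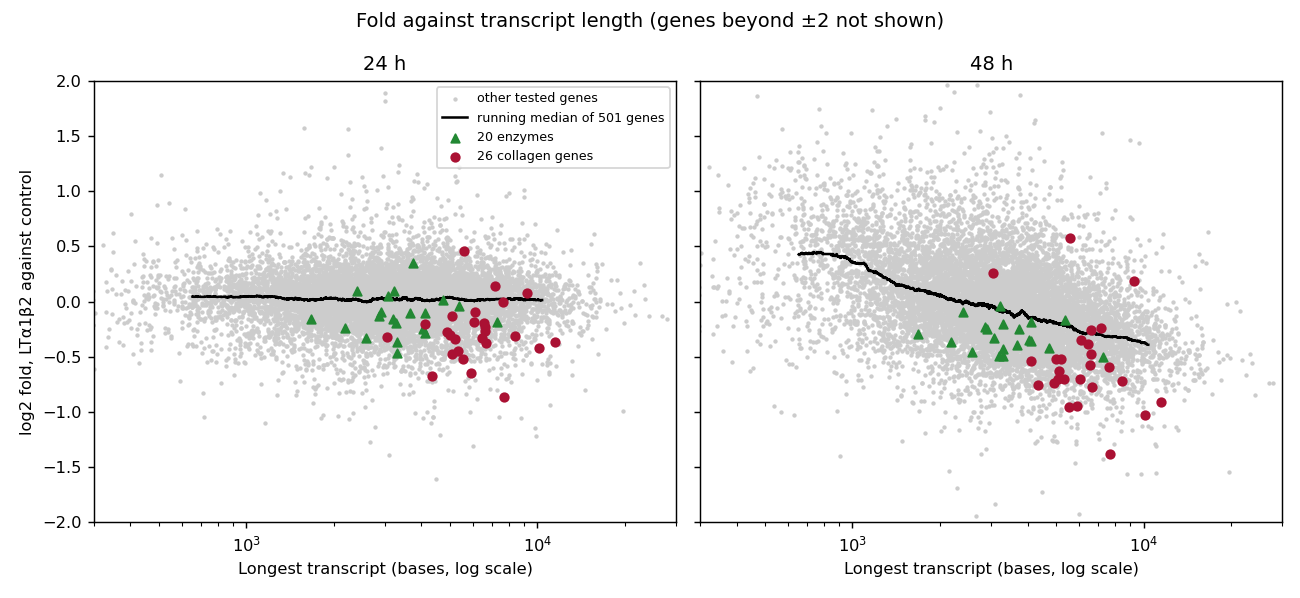
Log2 fold, LTα1β2 against control, on log2(CPM + 1) against the longest annotated transcript (log axis) after 24 h and 48 h; grey points are the other tested genes and the line is the running median over all tested genes. The line is flat after 24 h and declines after 48 h, and most of the 26 collagen genes lie below it in both panels.

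Changes from 24 h to 48 h were sized by the same 1.5-fold rule. In control cells 2 collagen genes, Col2a1 and Col9a3, were at least 1.5-fold lower after 48 h, where 0.995% of tested genes were. Col9a3 was at a low level, with 3.75 CPM after 24 h and 1.68 CPM after 48 h in control. Of the 46 genes 0 were 1.5-fold higher, where 0.403% of tested genes were. In control 15 collagen genes and 12 enzymes were lower after 48 h by any amount, where 54.2% of tested genes were. The median log2 change was -0.04 for the collagen genes and -0.02 for the enzymes. In treated cells 5 collagen genes were at least 1.5-fold lower after 48 h (Col2a1, Col27a1, Col11a2, Col6a3 and Col12a1), and Lox among the enzymes, where 6.95% of tested genes were, and 0 were 1.5-fold higher, where 5.58% were. By any amount 24 collagen genes and 19 enzymes were lower, where 64.3% of tested genes were. The median change was -0.33 for the collagen genes and -0.18 for the enzymes, against -0.13 over all tested genes. Col2a1 was lower after 48 h in both. These comparisons share libraries with those of treatment, and the treated one rests on the library with the shorter transcripts.

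Other genes of collagen biology were read from 7 lists. Of 21 tested genes of collagen chaperones and export 2 fell and 0 rose, with medians of -0.09 after 24 h and -0.15 after 48 h. They were Creb3l1, an endoplasmic reticulum-bound transcription factor needed for type I collagen in bone, and Fkbp14, a prolyl isomerase (log2 folds -0.55 ± 0.17 SE for both, adjusted p = 0.03 and 0.0333, limma). Serpinh1, the collagen chaperone HSP47, was at 1206 CPM in control and 1113 CPM with LTα1β2 after 24 h, and at 1253 CPM and 1020 CPM after 48 h, and did not pass. With the length trend removed 4 of this list fell, where 1.82% of genes did. When treated 48 h was left out 5 of this list fell, in the fit where 3.04% of all tested genes fell, against 2.27% in the additive fit. Of 17 tested fibril assembly partners 7 fell and 0 rose, with medians of -0.38 and -0.67, and 9 fell with treated 48 h left out. Among them Thbs1, thrombospondin 1, was at 0.500 and 0.416 of control, Omd, osteomodulin, at 0.468 and 0.475, and Tnc, tenascin C, at 0.714 and 0.461. Sparc, a collagen-binding protein of bone, was at 0.829 and 0.736 and did not pass. With the length trend removed 6 of the fibril assembly partners fell.

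Among collagen receptors 3 of 8 fell and 1 rose in the additive fit, where 2.27% of all tested genes fell and 2.92% rose. Itga1, Itga10 and Itga11 encode α chains of collagen-binding integrins and fell, with Itga11 going from 262 to 168 CPM after 24 h and from 234 to 116 CPM after 48 h. Itga2 rose (log2 fold 0.78 ± 0.25 SE, adjusted p = 0.0356, limma) from at most 0.840 CPM in control, near the floor of the table. With the length trend removed 2 receptors fell and 0 rose, so Itga2 did not pass in that fit. Ddr2, a receptor kinase for fibrillar collagen, was at 1.10 and 0.869 of control. After 48 h its log2 fold lay above the median of its like-length genes by 0.12. Of 8 tested collagen-degrading proteases 1 rose and 0 fell, and with treated 48 h left out 1 rose and 1 fell. The gene that rose was the gelatinase gene Mmp9, which went from 11.2 to 93.4 CPM after 24 h and from 20.8 to 147 CPM after 48 h. Mmp2 and Mmp14 were at 0.773 and 0.910 of control after 24 h and at 0.666 and 0.721 after 48 h, and the collagenase gene Mmp13 was at 0.881 to 2.67 CPM. Of 33 transcription regulators of collagen genes 3 fell, Sp7, Runx2 and Creb3l1, and 0 rose, with medians of 0.06 and -0.16. With the length trend removed 4 fell and 0 rose. In these fits 2.27% and 1.82% of all tested genes fell. Sp7, an osteoblast transcription factor, was at 0.365 and 0.257 of control, and Runx2 at 0.788 and 0.538. Against like-length genes the 48 h log2 differences were -1.78 for Sp7 and -0.61 for Runx2. The osteoblast marker Spp1 was higher in treated cells, at 1430 against 1234 CPM after 24 h and 2210 against 1525 CPM after 48 h. Without the treated 48 h library 6 of these regulators fell and 3 rose, in the fit where 3.04% of all tested genes fell and 3.31% rose. Of 13 genes of proline, glycine and ascorbate supply and 6 further processing enzymes 0 passed in limma; without the treated 48 h library 3 of the former rose and 1 of the latter fell.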

How the data were processed

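The authors deposited 1 table of CPM values for 12208 genes under Ensembl identifiers, 1 column per library. The submitters' processing notes name edgeR 3.30.0. The sources used here do not give the aligner, read counter, build or annotation. Per the labels' protocols, libraries kept strand and were sequenced as 150 bp pairs. Each column sums to 1000000 over the listed genes. The table holds no zeros, and its lowest values equal 9 to 12 reads. Reads were estimated by dividing each column by a step found from its lowest values (100% of values then lie within 0.01 of a whole number). No source states the step. These estimates gave the depths and the 95% counting intervals of CPM ratios (conditional binomial, Clopper-Pearson) and entered no test.

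GENCODE M21 (GRCm38) supplied symbols and lengths, and 12205 identifiers matched it. The 12160 genes averaging 1 CPM or more were tested on log2(CPM + 1), a scale that understates changes of low genes. The additive fit used limma 3.58.1 in R 4.3.3 (trended empirical Bayes, two-sided, 1 residual degree of freedom, infinite estimated prior degrees of freedom). On simulated reads of 12160 genes with a dispersion of 0.005 it recovered 26% of genes changed 1.25-fold, 76% of 1.5-fold, 94% of 2-fold and 100% of 4-fold, with 5 false calls. The simulation held no length difference between libraries and no effect of time. It gave every gene the same dispersion and each changed gene the same fold at both times. Its false calls therefore do not measure the error rate in these data.

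Genes named were any member and, from each of the 7 other lists, up to 4 genes with the largest absolute mean log2 fold, and always Serpinh1, Sparc, Ddr2, Mmp13 and Mmp14. Alternatives varied the pseudocount, filter, scaling, length trend, prior, model terms and libraries. The members and lists were chosen with earlier results of these data known. Motifs were searched in RefSeq promoter windows (GRCm38.p6).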

Additional observations from a re-analysis of the deposited data

Results flagged for a closer look

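2 of the 46 genes lay on opposite sides of control at the 2 times, with 95% counting intervals clear of 1 at both. The share of all tested genes that met this rule was not counted, so the count has no background beside it. The log2 fold of P4ha3 after 48 h was -0.09, and the median over all tested genes was also -0.09. For Loxl4, a lysyl oxidase family gene, the log2 fold at 48 h was lower than that at 24 h by a difference of -0.60, with treated levels at 1.28 (1.19 to 1.38) and 0.840 (0.769 to 0.917) of control. For P4ha3, a prolyl 4-hydroxylase subunit gene, the difference was -0.19, from 1.07 to 0.937 of control; under TMM rescaling P4ha3 was above 0 at both times. The differences were not tested, and the intervals cover counting error only.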

How the results depend on the processing

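Of the 8 collagen genes that fell in the additive limma fit, 2 did so with median-of-ratios rescaling, 5 with TMM rescaling (unweighted), 1 with 10 prior degrees of freedom and 1 without a time term (Col11a1 in both). For all genes these settings gave 83, 153, 25 and 11 that fell (276 as reported) and 95, 169, 39 and 20 that rose (355), and removal of the length trend gave 203 that rose. Leaving out a library also drops the time term, and the lone library of an arm is then assumed to vary like the other arm. The collagen genes that fell then numbered 0 without either control, 22 when treated 24 h was left out and 8 when treated 48 h was. The enzymes that fell ranged from 0 to 15, with 3 without the treated 48 h library, and all genes that fell from 6 (without the 48 h control) to 3063 (without treated 24 h), and those that rose from 16 to 1886 in the same fits. Col11a1 passed under 12 of 14 alternatives, with adjusted p from 5.2e-48 to 0.359. Col1a1 and Col12a1 passed under 6 of 14, and no called gene changed sign.

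At 2-fold 0 collagen genes were lower at 24 h and 2 at 48 h, and with the length trend removed 5 were 1.5-fold lower at 48 h. A pseudocount of 0.25, median-of-ratios rescaling, TMM rescaling and length-trend removal each made 1 collagen gene 1.5-fold higher at 48 h. The median 48 h fold of the collagen genes was -0.70 with a minimum of 5 CPM, -0.52 with median-of-ratios rescaling, -0.51 with TMM rescaling and -0.40 with the length trend removed, and that of the enzymes -0.23 with the length trend removed. Against like-length genes of at least 20 CPM, 6 enzymes lay in the lowest 10% at 48 h. Shares of all tested genes past the fold rules or in the lowest 10% were not counted for these settings. The cause of the differences between settings was not tested. The planned edgeR test on recovered reads was not run, because the deposited values are CPM and the reads are estimates. The additive fit pairs the libraries by time, and the fit without a time term is the unpaired one.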
